A study of Homo sapiens with 12 samples.

Results

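The 52 genes examined mostly encode enzymes that write or erase methyl marks on histones and DNA or remove acetyl groups from proteins. A few are partners or relatives of such enzymes, among them SUZ12, EED and KMT2E. The 52 were taken by name: every probe set whose platform gene symbol was one of them was collected. The probe set with the highest mean over the 12 arrays stood for its gene. All 52 were on the array, out of 19775 genes with a probe set of a single symbol. A gene was tested when its log2 signal exceeded 4 on at least 3 arrays, which 51 of the 52 did, among 10265 genes in all. TET1, a dioxygenase that oxidises methylated cytosine, was the exception, with values from 2.60 to 2.93 on the 12 arrays.

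The samples were LNCaP cells, an androgen-responsive line grown from a lymph node metastasis of a human prostate carcinoma. All 4 groups were deprived of androgen for 48 h and transfected with siRNA, and 42 h after transfection they were treated for a further 48 h. The groups were control siRNA with ethanol vehicle, control siRNA with 5 nM R1881, siRNA against SRF with vehicle, and siRNA against SRF with 5 nM R1881, with 3 arrays each. R1881 is a synthetic androgen that binds the androgen receptor, and SRF is serum response factor, a DNA-binding protein that occupies CArG boxes. The labels call the 3 arrays of a group biological replicates and name no cultures or days, so every p-value below is set against array-to-array spread, which may be technical. A single cell line was used, and in bulk RNA a smaller share of cells of one state and less RNA per cell cannot be told apart.

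Histone lysine methyltransferases transfer methyl groups from S-adenosylmethionine, mostly through SET domains, and lysine demethylases of the flavin-dependent and JmjC families remove them. Methylation of H3K4 marks active promoters and enhancers, that of H3K36 the bodies of transcribed genes, and that of H3K9 and H3K27 silent chromatin. Deacetylases usually act within co-repressor complexes. In prostate cancer several of these enzymes, among them EZH2, KDM1A and HDAC1, are known as partners or regulators of the androgen receptor.

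SRF signal was 6.07 ± 0.14 and 6.30 ± 0.18 (log2, SD, n = 3) with control siRNA in vehicle and in R1881, and 4.74 ± 0.28 and 4.87 ± 0.13 after SRF siRNA. This left 39.5% of the control signal in vehicle and 36.9% in R1881. All 7 luminal prostate markers measured lay above 4 in every group, and KLK3, which encodes prostate-specific antigen, ranged from 10.39 to 14.89. Of 6 basal or mesenchymal markers VIM alone exceeded 4, at 6.26 to 8.42, and KRT5 lay between 1.89 and 1.96. Of 7 fibroblast markers COL1A1 exceeded 4 on all arrays, DCN lay between 2.78 and 2.95, and COL3A1 had group means of 6.45 and 2.97 with control siRNA in vehicle and R1881 and of 7.91 and 4.07 after SRF siRNA. The leukocyte marker PTPRC lay between 3.01 and 3.21, and 1 of 6 leukocyte markers exceeded 4 in one group, LYZ after SRF siRNA with R1881. Correlations between arrays of a group were 0.996 to 0.998, and those between groups 0.966 to 0.988. A list of 20 genes of dividing cells moved with both treatments: R1881 lowered 19 of the 20 under control siRNA and 19 after SRF siRNA, and SRF siRNA raised 16 in vehicle and 16 in R1881. The log2 of their summed signal was 12.09 to 12.26 with control siRNA and vehicle, 10.81 to 10.89 with control siRNA and R1881, 12.78 to 12.91 after SRF siRNA with vehicle and 11.67 to 11.83 after SRF siRNA with R1881. The 3-prime GAPDH probe set exceeded the 5-prime one, a measure of RNA integrity, by 0.07 to 0.24 with control siRNA and vehicle and 0.45 to 0.49 with control siRNA and R1881, so these groups did not overlap. It was 0.32 to 0.39 and 0.37 to 0.64 after SRF siRNA in vehicle and in R1881. For members, values with that GAPDH difference as a covariate are given where it changed a call, and the part of the dividing-cell genes was not tested.

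R1881 lowered most of these genes. With control siRNA 33 of the 51 tested fell and 5 rose at an adjusted p under 0.05, where 33.8% of all genes tested were lower, 26.9% higher and 60.6% either. The members that rose were SIRT2, SETD7, KDM4B, HDAC6 and SIRT7. The 5 changes of at least 2-fold were all falls, in TET2, KDM6B, EZH2, SUZ12 and KMT2A, and 14.1% of all genes tested changed that much. The median log2 change was -0.47 for the 51 members and -0.05 for all genes tested, and the members ran from -1.41 to 0.54. Vehicle and R1881 arrays did not overlap for 41 of the 51, against 67.5% of all genes tested. With the GAPDH difference as a covariate 25 members were lower and 1 higher, where 23.7% of all genes tested were lower and 14.5% higher. SIRT2 alone remained among the 5 that rose.

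After SRF siRNA R1881 lowered 25 of the 51 and raised 5, where 27.7% of all genes tested were lower, 25.5% higher and 53.1% either. EZH2 alone changed by 2-fold or more, as did 10.7% of all genes tested. The median was -0.36, against -0.03 for all genes. The median size of the change was 0.48 with control siRNA and 0.38 after SRF siRNA for the members, and 0.36 and 0.29 for all genes tested. Vehicle and R1881 arrays did not overlap for 31 of the 51 members, against 59.2% of all genes. The arms share no arrays. Of the 33 members that fell with control siRNA and the 25 that fell after SRF siRNA, 23 fell in both, which is 69.7% of the former and 92% of the latter. Over all genes tested, those that fell in both arms made up 64.1% and 78.3% of the like lists.

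**Figure D1:**
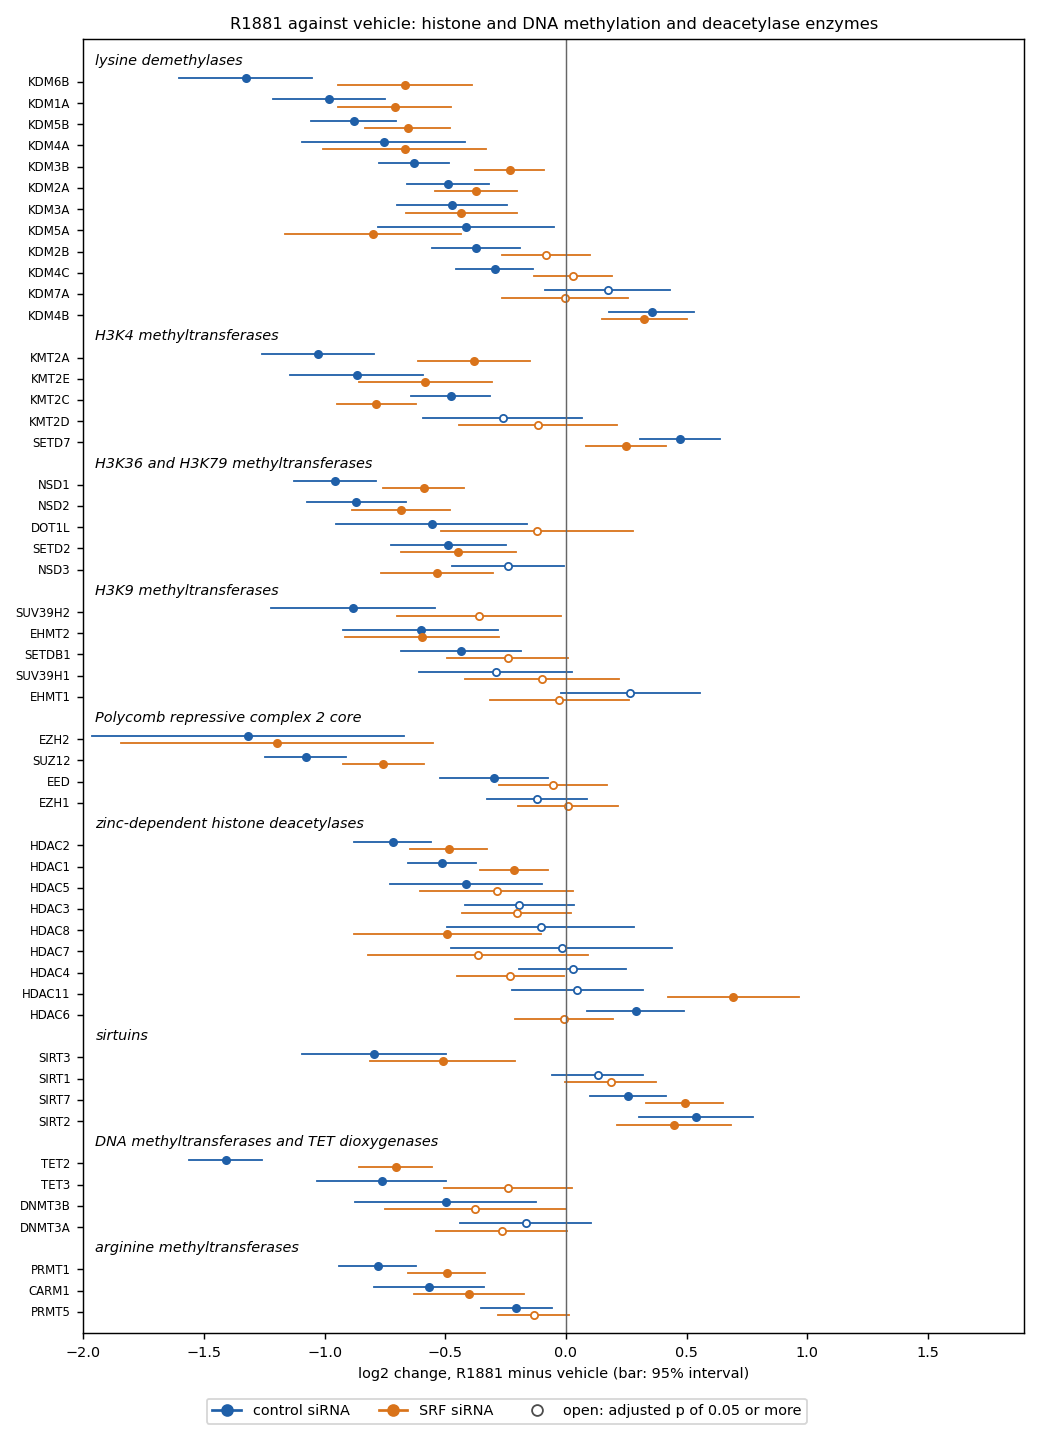
Log2 change with R1881 against vehicle for each of the 51 members tested, by enzyme family, with control siRNA in blue and after SRF siRNA in orange; bars are 95% intervals and open marks have an adjusted p of 0.05 or more. Filled marks lie mostly left of 0 in both arms, with 33 and 25 members lower, and the TET2 marks of the arms are furthest apart.

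The effect of R1881 itself differed between the siRNA arms for 9 of the 51 members, all with a higher change after SRF siRNA than with control siRNA, where 13.2% of all genes tested were higher, 10.5% lower and 23.8% either. These were TET2, KDM6B, KMT2A, HDAC11, TET3, KDM3B, NSD1, KDM4C and HDAC1. None of the 9 reached 2-fold, as 5.01% of all genes tested did. TET2, KDM6B, KMT2A, KDM3B, NSD1 and HDAC1 fell with R1881 in both arms, and the fall was smaller after SRF siRNA. TET3 and KDM4C passed as lower in the control arm alone, and HDAC11 as higher after SRF siRNA alone. With arrays shifted to a common median the split was 7 higher and 1 lower, against 12.1% and 10.3% of all genes tested. The lower one was KMT2C. The difference lay above 0 for 37 of the 51 members (72.5%) and for 53.7% of all genes tested.

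SRF siRNA raised more of the members than it lowered, as it did over all genes tested. In vehicle 17 rose and 5 fell, where 30.7% of all genes tested were higher, 25% lower and 55.7% either. The 17 that rose were a share close to that of all genes. Members called either way (43.1%) fell short of the 55.7%. In R1881 25 rose and 5 fell, against 33.6% and 25.4% of all genes, or 59% either way. In vehicle EZH2 alone passed 2-fold, as did 9.28% of all genes, and in R1881 SUV39H2, KDM1A, EZH2 and KDM2B did, as did 11.6% of all genes. The median change was 0.14 in vehicle and 0.24 in R1881, against 0.04 and 0.06 for all genes tested. Arrays of control and SRF siRNA did not overlap for 25 members in vehicle and 35 in R1881, against 61.2% and 66.6% of all genes. The members higher in both media numbered 13, which is 76.5% of the 17 and 52% of the 25. Over all genes tested, the genes higher in both made up 71.7% and 65.5% of the like lists. SETD7, NSD1, KDM3A and SIRT2 were lower in both. With the GAPDH difference as a covariate 7 members were higher in vehicle, in place of 17, where 18.5% of all genes tested were higher.

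**Figure D2:**
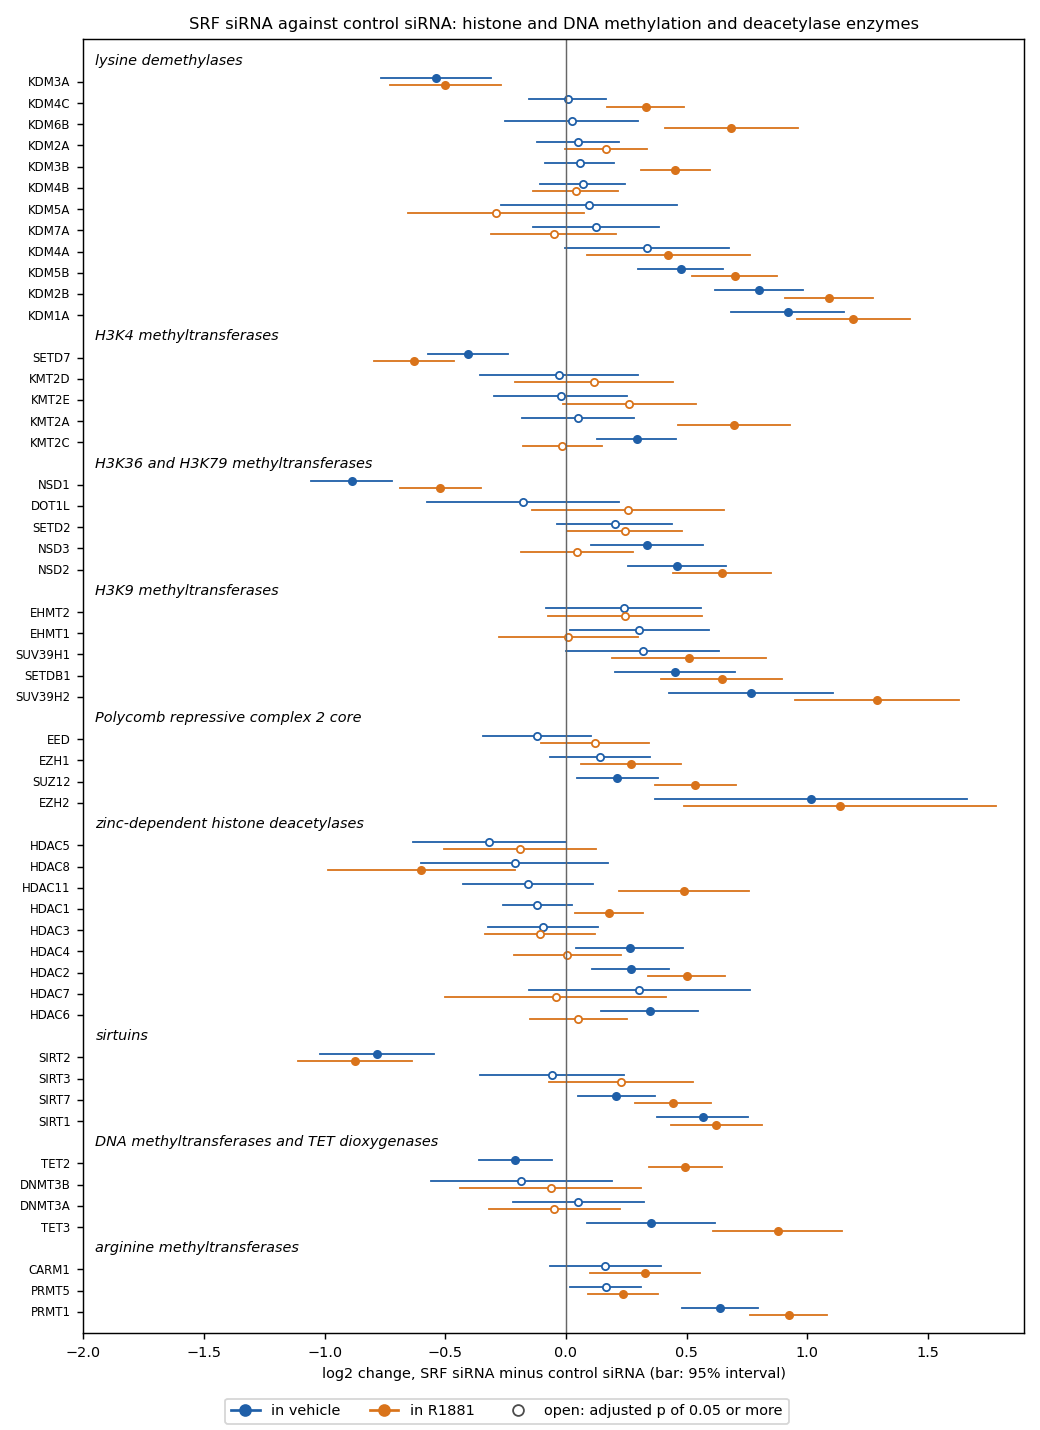
Log2 change after SRF siRNA against control siRNA for the 51 members tested, in vehicle (blue) and in R1881 (orange), with 95% intervals; open marks have an adjusted p of 0.05 or more. SUV39H2, KDM1A, EZH2 and KDM2B lie past 1 in R1881, and SIRT2, SETD7, NSD1 and KDM3A lie below 0 in both media.

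**Figure D3:**
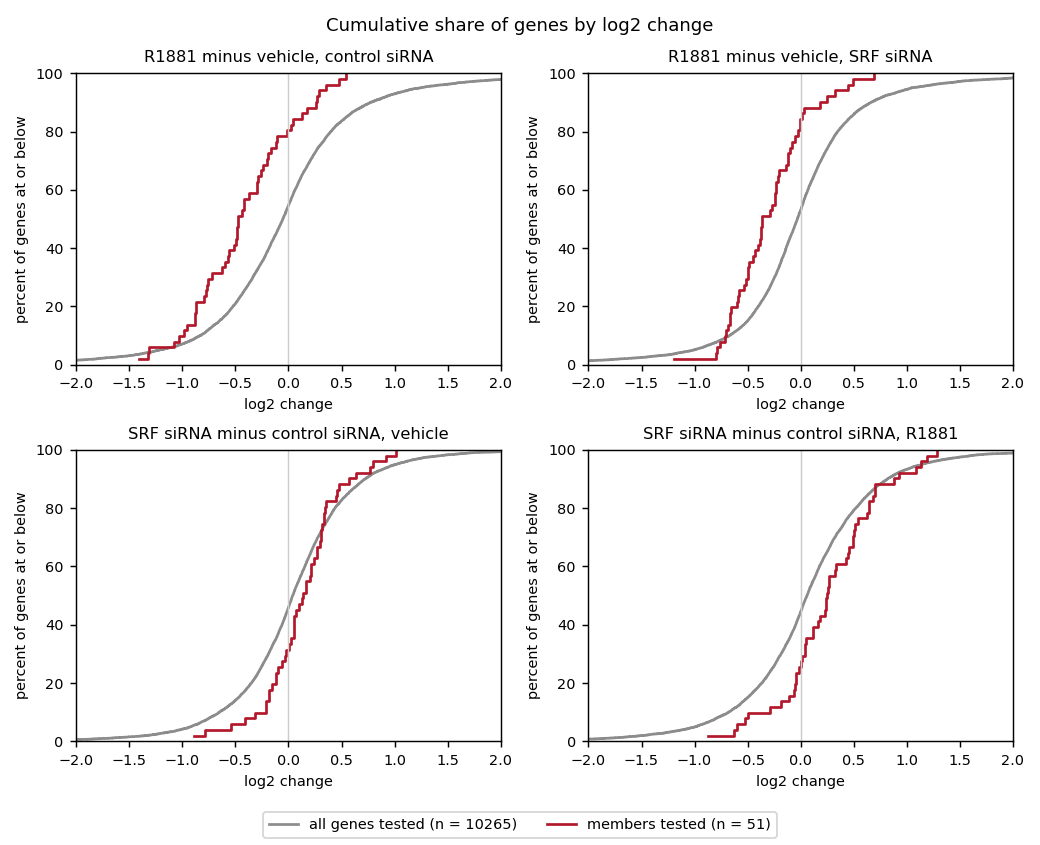
Cumulative percent of genes by log2 change in 4 comparisons, with the 51 members in red and all 10265 genes tested in grey. The red curves lie mostly left of the grey ones for R1881 (medians -0.47 and -0.36 against -0.05 and -0.03) and mostly right of them for SRF siRNA (medians 0.14 and 0.24 against 0.04 and 0.06).

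Polycomb repressive complex 2 trimethylates H3K27. Its catalytic subunits are EZH2 or EZH1, with SUZ12 and EED as the core partners. EZH2 and SUZ12 were lower with R1881 in both arms and higher after SRF siRNA in both media. Stretches of their promoters are shown because both genes passed 2-fold with R1881 and their windows hold E2F words, the sites of factors that drive genes of dividing cells. They come from the RefSeq promoter table (GRCh38.p14), which matched 48 of the 52 members with 77 windows of 300 bases, 250 before the start and 50 from it on. Capitals mark the E2F words searched (TTTCCCGC, TTTCGCGC, TTTGCCGC and TTTGGCGC) and the CCAAT box, each on either strand. The stretch of EZH2 spans chr7:148884282-148884391 on the minus strand, and that of SUZ12 chr17:31936808-31937006 on the plus strand.
EZH2: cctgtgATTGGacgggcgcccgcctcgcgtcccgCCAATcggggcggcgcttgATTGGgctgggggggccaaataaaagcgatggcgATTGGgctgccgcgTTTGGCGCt
SUZ12: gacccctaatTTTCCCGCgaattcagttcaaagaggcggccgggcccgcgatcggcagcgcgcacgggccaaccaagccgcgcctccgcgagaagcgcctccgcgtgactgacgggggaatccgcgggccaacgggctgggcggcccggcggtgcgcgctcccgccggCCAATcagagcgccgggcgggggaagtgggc
An E2F word was present in 4 of the 77 member windows (5.19%), of NSD2, EZH2, SUZ12 and EZH1, and in 3.31% of all 35116 windows. The CCAAT box was present in 32.5% of the member windows and in 34.6% of all windows. The windows of TET2, KDM6B and KMT2A, the other members past 2-fold with R1881, held neither these motifs nor a CArG box. A match is a description of the sequence, and windows of one gene can overlap.

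EZH2, the main H3K27 methyltransferase of dividing cells, read 6.41, 6.04 and 5.81 with control siRNA and vehicle and 5.14, 4.27 and 4.90 with control siRNA and R1881. It read 6.93, 7.23 and 7.15 after SRF siRNA with vehicle and 5.24, 5.93 and 6.55 after SRF siRNA with R1881. The R1881 arrays lay below the vehicle arrays in each arm without overlap, and the last group spread most, with an SD of 0.66. R1881 lowered EZH2 2.49-fold with control siRNA (log2 change -1.32, SE 0.30, adjusted p 0.00209) and 2.29-fold after SRF siRNA (-1.20, adjusted p 0.00479). The difference between these effects was 0.12, with a 95% interval from -0.80 to 1.03. SRF siRNA raised EZH2 to 202% in vehicle (1.02, adjusted p 0.0116) and to 220% in R1881 (1.14, adjusted p 0.00565). With the GAPDH difference as a covariate the rise in vehicle was 0.44 with an adjusted p of 0.408, so that call was lost. The list of dividing-cell genes moved in the same directions as EZH2, and its part in the result was not tested.

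SUZ12, which holds the complex together, read 9.56, 9.68 and 9.72 with control siRNA and vehicle and 8.53, 8.55 and 8.65 with control siRNA and R1881. With SRF siRNA the values were 9.90, 9.90 and 9.81 in vehicle and 8.98, 9.16 and 9.19 in R1881. None of the 4 groups overlapped another. The fall with R1881 was 2.11-fold with control siRNA (log2 change -1.08, SE 0.08, adjusted p 1.57e-07) and -0.76 on the log2 scale after SRF siRNA (adjusted p 5.32e-06). The difference of 0.32 did not pass (SE 0.11, adjusted p 0.0502), and passed with the covariate (0.43, adjusted p 0.0319). SRF siRNA raised SUZ12 by 0.21 in vehicle (adjusted p 0.0329) and by 0.54 in R1881 (adjusted p 7.65e-05). The vehicle value was 0.09 with the covariate, with an adjusted p of 0.539. EED, which binds the trimethylated product, passed with R1881 under control siRNA alone, where it fell (-0.30, adjusted p 0.0244). With the covariate that change was -0.27 (adjusted p 0.32). EZH1, the paralogue of resting cells, was not called with R1881 (-0.12 and 0.01) and rose after SRF siRNA in R1881 (0.27, adjusted p 0.0279).

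**Figure D4:**
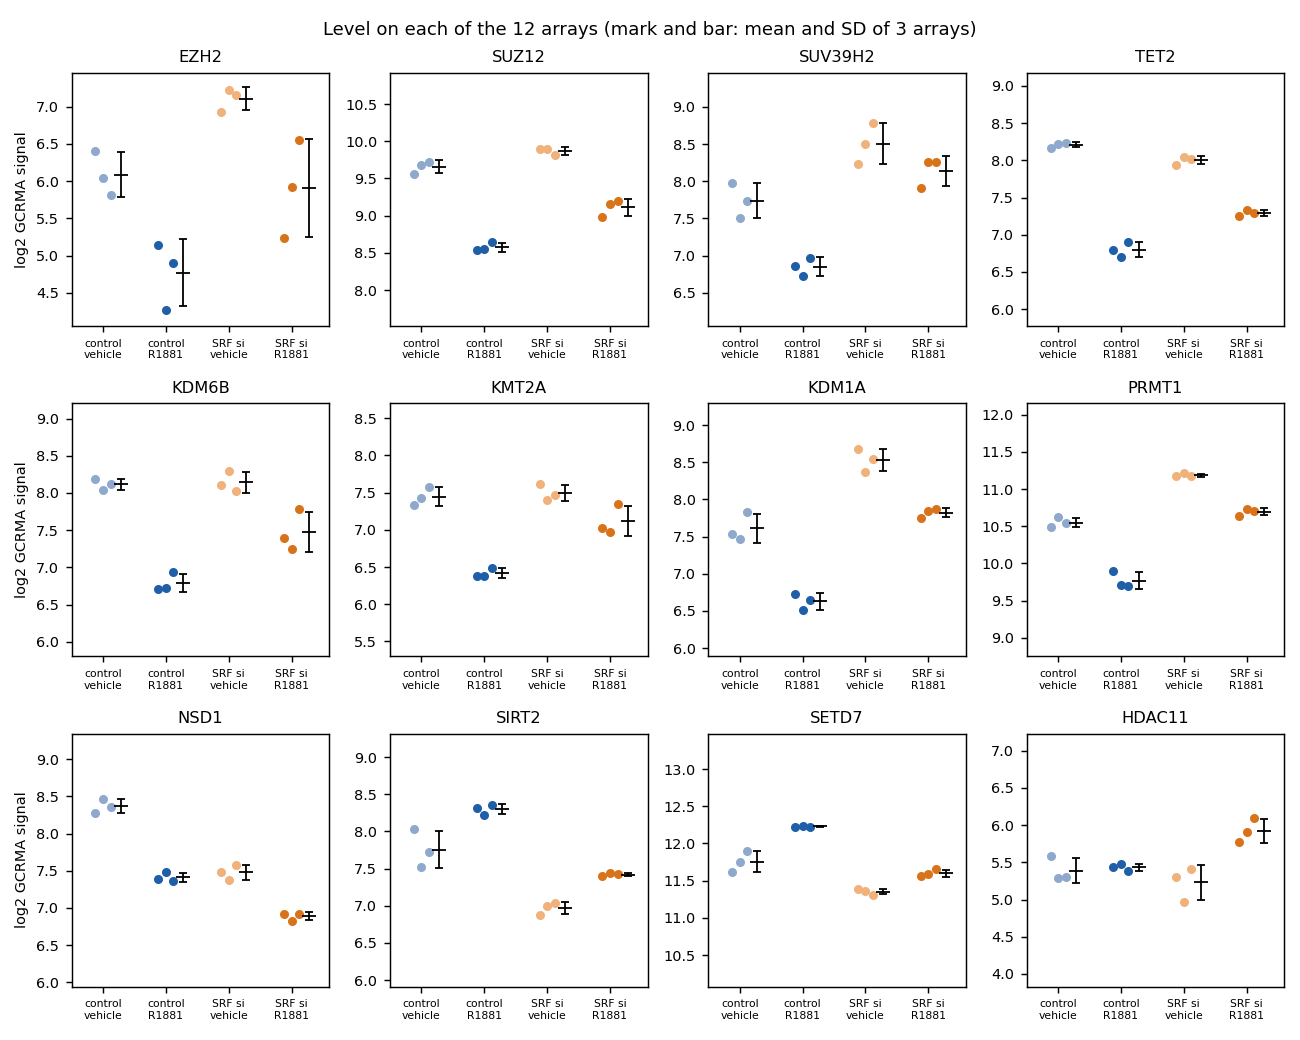
Log2 GCRMA signal of 12 members on each of the 12 arrays (points) with the mean and SD of the 3 arrays of each group; every panel spans the same number of log2 units. In TET2, KDM6B and KMT2A the R1881 mean after SRF siRNA lies between the R1881 mean with control siRNA and the vehicle means, while SIRT2 and SETD7 run the other way from most members.

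The DNA methyltransferases DNMT3A and DNMT3B place new methyl marks on cytosine, and TET dioxygenases oxidise them. The TET enzymes carried the largest change of the family. TET2 read 8.17, 8.22 and 8.24 with control siRNA and vehicle and 6.79, 6.71 and 6.91 with control siRNA and R1881. In the SRF siRNA arm it read 7.94, 8.05 and 8.02 in vehicle and 7.25, 7.33 and 7.30 in R1881. The 4 groups were fully separate, with the R1881 arrays lowest in each arm. R1881 lowered TET2 2.66-fold with control siRNA (log2 change -1.41, SE 0.07, adjusted p 5.53e-09), the largest fall among the 51 members, and 1.63-fold after SRF siRNA (-0.71, adjusted p 3.75e-06). The effects differed by 0.70 (SE 0.10, adjusted p 0.00031). SRF siRNA lowered TET2 in vehicle (-0.21, adjusted p 0.0217), a call lost with the covariate (-0.25, adjusted p 0.0822) and without control siRNA vehicle replicate 2 or 3 or SRF siRNA vehicle replicate 1 (adjusted p 0.0543, 0.0555 and 0.0686), and raised it by 0.49 in R1881 (adjusted p 6.21e-05). Its other probe sets, with p adjusted over all passing probe sets, gave differences of 0.19 (adjusted p 0.642) and 1.11 (adjusted p 0.0123). All 3 were lower with R1881 in both arms. After SRF siRNA in R1881 the highest-mean one alone was higher and 2 were not called (-0.06 to 0.49). In vehicle 2 of the 3 were lower after SRF siRNA (-0.83 to -0.21).

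TET3 read 7.57, 7.42 and 7.51 with control siRNA and vehicle and 6.60, 6.76 and 6.85 with control siRNA and R1881. The SRF siRNA arrays read 7.75, 7.87 and 7.93 in vehicle and 7.36, 7.58 and 7.90 in R1881, where the third array overlapped the vehicle arrays. R1881 lowered it with control siRNA (-0.76, SE 0.12, adjusted p 0.000169), and the change after SRF siRNA was -0.24 (adjusted p 0.119). The difference of 0.52 (SE 0.17, adjusted p 0.0455) was lost in 10 of the 12 fits that left out one array, and was kept without control siRNA R1881 replicate 3 (adjusted p 0.0483) and without SRF siRNA R1881 replicate 1 (adjusted p 0.0108). SRF siRNA raised TET3 by 0.35 in vehicle (adjusted p 0.0271) and by 0.88 in R1881 (adjusted p 5.98e-05). With the covariate the vehicle value was 0.11 (adjusted p 0.622), and the fall with R1881 after SRF siRNA passed (-0.38, adjusted p 0.0292). With p adjusted over all passing probe sets, both of its 2 were lower with R1881 under control siRNA (-0.76 and -0.46). In each medium 1 of the 2 was higher after SRF siRNA (0.24 to 0.35 in vehicle, 0.44 to 0.88 in R1881). Neither was called for the difference (0.20 and 0.52). DNMT3B lay near the detection cutoff, with group means from 3.56 to 4.12. It exceeded 4 on 2 control siRNA vehicle arrays and 1 SRF siRNA vehicle array and on none with R1881, so it passed the filter through the groups where it was higher. Its fall with R1881 under control siRNA (-0.50, adjusted p 0.0243) was thus set against dim values, and the call was lost with the covariate (-0.26, adjusted p 0.574). DNMT3A, at 4.43 to 5.07 on all arrays, passed in no comparison, but with the covariate it was called lower with R1881 in both arms (-0.67, adjusted p 0.00855, and -0.47, adjusted p 0.00352).

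Among the lysine demethylases 10 of 12 fell with R1881 under control siRNA and 8 after SRF siRNA, where 33.8% and 27.7% of all genes tested fell, and KDM4B rose in both arms. KDM6B, which removes H3K27 methylation, read 8.19, 8.04 and 8.12 with control siRNA and vehicle and 6.71, 6.73 and 6.93 with control siRNA and R1881. The SRF siRNA arrays read 8.10, 8.30 and 8.02 in vehicle and 7.39, 7.25 and 7.78 in R1881. The vehicle arrays of both arms overlapped one another, and the R1881 arrays of the arms did not. R1881 lowered KDM6B 2.51-fold with control siRNA (log2 change -1.33, SE 0.13, adjusted p 2.14e-06) and after SRF siRNA (-0.67, adjusted p 0.000843). The effects differed by 0.66 (SE 0.18, adjusted p 0.0192). SRF siRNA raised KDM6B by 0.69 in R1881 (adjusted p 0.000548), and the vehicle value was 0.02 (adjusted p 0.889). Each of its 5 probe sets was lower with R1881 under control siRNA, and 3 of the 5 passed for the difference.

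KDM1A, also known as LSD1, removes mono- and dimethylation of H3K4 and works with the androgen receptor. It read 7.53, 7.47 and 7.83 with control siRNA and vehicle, 6.72, 6.51 and 6.65 with control siRNA and R1881, 8.67, 8.37 and 8.54 after SRF siRNA with vehicle, and 7.75, 7.84 and 7.87 after SRF siRNA with R1881. The R1881 arrays after SRF siRNA overlapped the vehicle arrays of the control arm, and the other groups stood apart. R1881 lowered it 1.98-fold with control siRNA (log2 change -0.98, SE 0.11, adjusted p 6.92e-06) and after SRF siRNA (-0.71, adjusted p 0.000148). SRF siRNA raised it by 0.92 in vehicle (adjusted p 1.84e-05) and 2.28-fold in R1881 (1.19, adjusted p 1.68e-06). The R1881 effects differed by 0.27, which did not pass (adjusted p 0.225).

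KDM2B, an H3K36 demethylase that also brings Polycomb complexes to CpG islands, read 7.70, 7.85 and 7.59 with control siRNA and vehicle and 7.35, 7.35 and 7.33 with control siRNA and R1881. After SRF siRNA it read 8.63, 8.51 and 8.41 in vehicle and 8.33, 8.47 and 8.49 in R1881. All arrays with SRF siRNA lay above all arrays with control siRNA. The rise was 0.80 in vehicle (SE 0.08, adjusted p 7.85e-06) and 2.13-fold in R1881 (1.09, adjusted p 4.74e-07). R1881 lowered KDM2B with control siRNA (-0.37, adjusted p 0.00211), and the change after SRF siRNA was -0.08 (adjusted p 0.425). KDM2A, its paralogue, fell with R1881 in both arms (-0.49 and -0.37), and was not called after SRF siRNA.

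KDM3A and KDM3B remove H3K9 methylation, and KDM3A is a known coactivator of the androgen receptor. KDM3A read 8.61, 8.46 and 8.63 with control siRNA and vehicle, 8.01, 8.12 and 8.15 with control siRNA and R1881, 8.17, 7.98 and 7.94 after SRF siRNA with vehicle, and 7.37, 7.66 and 7.76 after SRF siRNA with R1881. The arrays with both treatments were the lowest, and those with one treatment overlapped each other. R1881 lowered KDM3A by a like amount in each arm (-0.47, adjusted p 0.00194, and -0.43, adjusted p 0.00422), with a difference of 0.04 (SE 0.15). SRF siRNA lowered it as well (-0.54 in vehicle, adjusted p 0.000957, and -0.50 in R1881, adjusted p 0.00139). KDM3B fell with R1881 under control siRNA (-0.63, adjusted p 4.88e-06) and after SRF siRNA (-0.23, adjusted p 0.0106), and these differed by 0.40 (SE 0.09, adjusted p 0.00905). With the covariate the fall after SRF siRNA and the difference missed the threshold (-0.20, adjusted p 0.0586, and 0.34, adjusted p 0.0565). SRF siRNA raised KDM3B in R1881 (0.45, adjusted p 8.57e-05) and not detectably in vehicle (0.06).

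KDM4A, KDM4B and KDM4C remove trimethylation of H3K9 and H3K36. KDM4B, a known androgen receptor coactivator, read 9.62, 9.69 and 9.75 with control siRNA and vehicle and 10.04, 10.08 and 10.01 with control siRNA and R1881. With SRF siRNA the values were 9.74, 9.78 and 9.75 in vehicle and 9.93, 10.08 and 10.24 in R1881. The R1881 arrays lay above the vehicle arrays in both arms. It rose by 0.35 with control siRNA (SE 0.08, adjusted p 0.00221) and by 0.32 after SRF siRNA (adjusted p 0.00487). Its 3 other probe sets were not called with control siRNA (0.04, -0.04 and 0.02), and with the covariate that call was lost (0.12, adjusted p 0.501). KDM4A ran the other way, lower with R1881 in both arms (-0.76, adjusted p 0.00112, and -0.67, adjusted p 0.00322) and higher after SRF siRNA in R1881 (0.42, adjusted p 0.0329). Its call under control siRNA was lost with the covariate (-0.76, adjusted p 0.0748). The second probe set of KDM4A was lower with R1881 in both arms (-1.04 and -0.50). It passed for the difference (0.55, adjusted p 0.0321 over all passing probe sets), where the highest-mean one was not called (0.09). KDM4C fell with R1881 under control siRNA (-0.30, adjusted p 0.00406), and the change after SRF siRNA was 0.03. The effects differed by 0.32 (SE 0.10, adjusted p 0.0409), and SRF siRNA raised KDM4C in R1881 (0.33, adjusted p 0.00202). For KDM4C the covariate left the fall under control siRNA (-0.29, adjusted p 0.138) and the difference (0.32, adjusted p 0.115) uncalled.

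KDM5A and KDM5B remove trimethylation of H3K4. KDM5A read 7.08, 7.03 and 7.22 with control siRNA and vehicle, 6.65, 6.70 and 6.73 with control siRNA and R1881, 7.13, 7.29 and 7.20 after SRF siRNA with vehicle, and 6.41, 5.95 and 6.85 after SRF siRNA with R1881. Vehicle arrays lay above R1881 arrays in each arm, and the last group had an SD of 0.45. The falls were -0.42 (adjusted p 0.0478) and -0.80 (adjusted p 0.0016), and the effect of SRF siRNA was called in neither medium (0.09 and -0.29). With the covariate the first fall of KDM5A was larger, -0.79 (SE 0.30), and not called (adjusted p 0.0613). With p adjusted over all passing probe sets, none of its 4 was called with R1881 under control siRNA (-0.42 to -0.02). After SRF siRNA 1 of the 4 was lower with R1881 and 3 were not called (-0.80 to -0.06). KDM5B fell with R1881 in both arms (-0.88, adjusted p 1.49e-06, and -0.66, adjusted p 2.72e-05) and rose after SRF siRNA in both media (0.48, adjusted p 0.000342, and 0.70, adjusted p 1.3e-05). KDM7A, which acts on H3K9 and H3K27, passed in no comparison and ranged from 6.45 to 6.91, though its second probe set was higher after SRF siRNA in R1881 (0.78).

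The H3K4 methyltransferases followed no single direction. KMT2A, the MLL1 protein of the COMPASS-like complexes, read 7.33, 7.43 and 7.58 with control siRNA and vehicle and 6.38, 6.38 and 6.49 with control siRNA and R1881. In the SRF siRNA arm it read 7.62, 7.41 and 7.47 in vehicle and 7.03, 6.97 and 7.35 in R1881. R1881 arrays lay below vehicle arrays in each arm, and vehicle arrays of the arms overlapped. The fall was 2.04-fold with control siRNA (log2 change -1.03, SE 0.11, adjusted p 4.15e-06) and smaller after SRF siRNA (-0.38, adjusted p 0.00943), a difference of 0.65 (SE 0.15, adjusted p 0.00825). SRF siRNA raised KMT2A by 0.70 in R1881 (adjusted p 0.000119), with 0.05 in vehicle. The result depended on the probe set. All 6 of its passing probe sets were lower with R1881 in both arms, but their differences ran from -0.84 to 0.65 and the highest-mean one alone passed. In R1881 after SRF siRNA 3 of them were higher and 1 lower.

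KMT2C, an enhancer H3K4 monomethyltransferase, read 9.65, 9.77 and 9.83 with control siRNA and vehicle and 9.29, 9.17 and 9.36 with control siRNA and R1881. The SRF siRNA arrays read 10.08, 10.03 and 10.02 in vehicle and 9.19, 9.24 and 9.34 in R1881. The R1881 arrays of the arms overlapped, and the vehicle arrays were higher after SRF siRNA. R1881 lowered it with control siRNA (-0.48, adjusted p 0.00015) and after SRF siRNA (-0.79, adjusted p 3.04e-06). The difference of -0.31 missed the threshold (SE 0.11, adjusted p 0.0547), while 3 of its 5 passing probe sets were lower for the difference. SRF siRNA raised it in vehicle (0.29, adjusted p 0.00569), a call lost with the covariate (0.18, adjusted p 0.202). Of its 5 probe sets 2 were higher after SRF siRNA in vehicle and 3 not called. In R1881 3 were lower and 2 not called (-0.74 to -0.02). KMT2E, a relative without known methyltransferase activity, fell with R1881 in both arms (-0.87, adjusted p 8.03e-05, and -0.58, adjusted p 0.00207). With the covariate KMT2E lost the first call (-0.52, adjusted p 0.08) and was called higher after SRF siRNA in R1881 (0.29, adjusted p 0.0494). The highest-mean probe set of KMT2D, the close partner of KMT2C, was not called in any comparison, and its R1881 change with control siRNA was -0.26 (adjusted p 0.151). Its 3 other passing probe sets were all lower there (-0.83, -0.45 and -0.80, called over all passing probe sets).

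SETD7 monomethylates H3K4 and several non-histone proteins, and was one of the few members higher with R1881. It read 11.62, 11.75 and 11.90 with control siRNA and vehicle and 12.23, 12.24 and 12.22 with control siRNA and R1881. After SRF siRNA it read 11.38, 11.36 and 11.31 in vehicle and 11.56, 11.59 and 11.65 in R1881. Every array with SRF siRNA and vehicle lay below every array of the other groups. R1881 raised SETD7 by 0.47 with control siRNA (SE 0.08, adjusted p 0.00017) and by 0.25 after SRF siRNA (adjusted p 0.015). SRF siRNA lowered it in vehicle (-0.41, adjusted p 0.00069) and in R1881 (-0.63, adjusted p 1.82e-05). With the covariate both R1881 calls were lost (0.38, adjusted p 0.0559, and 0.21, adjusted p 0.074), and its second probe set gave -0.14 with R1881 after SRF siRNA.

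NSD1, NSD2 and NSD3 dimethylate H3K36, SETD2 trimethylates it, and DOT1L methylates H3K79. NSD1 was lowered by each treatment and had the largest fall of the 51 members after SRF siRNA in vehicle. It read 8.28, 8.46 and 8.36 with control siRNA and vehicle and 7.39, 7.48 and 7.36 with control siRNA and R1881. With SRF siRNA the values were 7.48, 7.38 and 7.58 in vehicle and 6.92, 6.82 and 6.92 in R1881. Arrays with one treatment overlapped each other, and those with both lay lowest. SRF siRNA left 54.0% of the signal in vehicle (log2 change -0.89, SE 0.08, adjusted p 1.68e-06) and lowered it in R1881 (-0.52, adjusted p 9.61e-05). R1881 lowered it with control siRNA (-0.96, adjusted p 4.54e-07) and after SRF siRNA (-0.59, adjusted p 4.43e-05), which differed by 0.37 (SE 0.11, adjusted p 0.0295). Its other passing probe sets, with means of 5.05 and 4.84, were called in no comparison.

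A stretch of the NSD1 promoter is shown because it holds a CArG box, the sequence bound by SRF, and NSD1 fell after SRF siRNA; it was picked after these values were seen. It spans chr5:177131619-177131707 (GRCh38.p14, RefSeq) on the plus strand, and capitals mark the CArG box. The box was present in 2 of the 77 member windows (2.6%), of NSD1 and HDAC6, and in 1.29% of all windows. HDAC6 was higher after SRF siRNA in vehicle.
NSD1: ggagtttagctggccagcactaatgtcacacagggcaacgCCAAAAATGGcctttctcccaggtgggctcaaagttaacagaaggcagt

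NSD2 fell with R1881 in both arms (-0.87, adjusted p 5.96e-06, and -0.68, adjusted p 6.29e-05) and, unlike NSD1, was higher after SRF siRNA in vehicle (0.46, adjusted p 0.0012) and in R1881 (0.65, adjusted p 8.06e-05). Of its 5 passing probe sets 4 were higher after SRF siRNA in vehicle but 1 in R1881, with 4 not called there (0.05 to 0.65). With R1881 3 of the 5 were lower under control siRNA and 4 after SRF siRNA, and 1 was lower for the difference. NSD3 fell with R1881 after SRF siRNA (-0.53, adjusted p 0.00117), with -0.24 under control siRNA (adjusted p 0.0669). It rose after SRF siRNA in vehicle (0.34, adjusted p 0.0181, and with the covariate 0.32, adjusted p 0.145). SETD2 fell with R1881 in both arms (-0.49, adjusted p 0.00211, and -0.45, adjusted p 0.00466). DOT1L fell under control siRNA (-0.56, adjusted p 0.0187), with -0.12 after SRF siRNA. With the covariate the first DOT1L change was larger, -0.85 (SE 0.34), and not called (adjusted p 0.0749). Its second probe set was higher after SRF siRNA in both media (0.66 and 1.14), where the highest-mean one was not called (-0.18 and 0.26).

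H3K9 methyltransferases build heterochromatin: SUV39H1, SUV39H2 and SETDB1 trimethylate the residue, and EHMT1 and EHMT2 (GLP and G9a) dimethylate it. With R1881 under control siRNA 3 of the 5 fell and none rose, where 33.8% of all genes tested fell and 26.9% rose. In R1881 SRF siRNA raised 3 and lowered none, where 33.6% of all genes rose and 25.4% fell. SUV39H2 showed the largest rise of the 51 members after SRF siRNA in R1881, and in vehicle the rises of EZH2, KDM1A and KDM2B were larger. It read 7.97, 7.51 and 7.73 with control siRNA and vehicle and 6.86, 6.72 and 6.97 with control siRNA and R1881. In the SRF siRNA arm it read 8.23, 8.50 and 8.78 in vehicle and 7.91, 8.25 and 8.27 in R1881. Within each medium all arrays with SRF siRNA lay above those with control siRNA. The rise was 0.77 in vehicle (SE 0.16, adjusted p 0.00124) and 2.44-fold in R1881 (1.29, adjusted p 1.85e-05). R1881 lowered SUV39H2 with control siRNA (-0.88, adjusted p 0.000361), while the change after SRF siRNA was -0.36 (adjusted p 0.0694) and the difference was not called (0.52, SE 0.22, adjusted p 0.111).

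SETDB1 rose after SRF siRNA in both media (0.45, adjusted p 0.00537, and 0.65, adjusted p 0.000401) and fell with R1881 under control siRNA (-0.44, adjusted p 0.0057). With the covariate its rise in vehicle was lost (0.14, adjusted p 0.385), while the fall with R1881 after SRF siRNA (-0.42, adjusted p 0.00417) and the difference (0.47, adjusted p 0.0389) passed. Its second probe set was not called after SRF siRNA (0.09 and -0.19). EHMT2 fell with R1881 in both arms by the same amount (-0.60, adjusted p 0.00357, and -0.60, adjusted p 0.00464), and its partner EHMT1 was called nowhere. SUV39H1 exceeded 4 on 2 arrays of each SRF siRNA group and on none with control siRNA, so its rise after SRF siRNA in R1881 (0.51, adjusted p 0.00957) was set against dim values and it passed the filter through the groups where it was higher.

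Of the 9 zinc-dependent deacetylases, 3 fell and 1 rose with R1881 under control siRNA, a share lower close to the 33.8% of all genes tested. HDAC1 and HDAC2 are the catalytic pair of the NuRD and SIN3 complexes. HDAC1 read 11.90, 11.83 and 11.87 with control siRNA and vehicle, 11.30, 11.33 and 11.43 with control siRNA and R1881, 11.74, 11.71 and 11.80 after SRF siRNA with vehicle, and 11.49, 11.59 and 11.52 after SRF siRNA with R1881. The 4 groups did not overlap. R1881 lowered HDAC1 with control siRNA (-0.51, adjusted p 2.5e-05) and after SRF siRNA (-0.22, adjusted p 0.0147). The difference was 0.30 (SE 0.09, adjusted p 0.0347), and 0.31 with the covariate (adjusted p 0.0878). SRF siRNA raised HDAC1 by 0.18 in R1881 (adjusted p 0.0315). HDAC2 fell with R1881 in both arms (-0.72, adjusted p 3.66e-06, and -0.49, adjusted p 0.000139) and rose after SRF siRNA in both media (0.27, adjusted p 0.00787, and 0.50, adjusted p 8.5e-05), the first lost with the covariate (0.23, adjusted p 0.13). HDAC3, the enzyme of another co-repressor complex, passed in no comparison, with an R1881 change of -0.19 under control siRNA (adjusted p 0.13).

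HDAC6, a cytoplasmic tubulin deacetylase, read 7.73, 7.99 and 7.85 with control siRNA and vehicle, 8.28, 8.07 and 8.09 with control siRNA and R1881, 8.30, 8.21 and 8.11 after SRF siRNA with vehicle, and 8.20, 8.10 and 8.29 after SRF siRNA with R1881. The control vehicle arrays lay below the arrays of the other groups, which overlapped. R1881 raised it with control siRNA (0.29, adjusted p 0.0171), SRF siRNA raised it in vehicle (0.35, adjusted p 0.00719), and the changes of each treatment on top of the other were -0.01 and 0.05 and not called. With the covariate both calls were lost (0.09, adjusted p 0.719, and 0.21, adjusted p 0.228). The R1881 call was also lost without control siRNA vehicle replicate 1 (0.22, adjusted p 0.0721) or R1881 replicate 1 (0.22, adjusted p 0.0788), and the difference of -0.30 was not called (adjusted p 0.128). Its other passing probe set, with a mean of 5.56, was called in no comparison and gave -0.02 after SRF siRNA in vehicle.

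HDAC11, the sole class IV deacetylase, read 5.58, 5.29 and 5.30 with control siRNA and vehicle, 5.44, 5.48 and 5.39 with control siRNA and R1881, 5.31, 4.97 and 5.42 after SRF siRNA with vehicle, and 5.77, 5.91 and 6.09 after SRF siRNA with R1881. The arrays with both treatments lay above all others. R1881 raised HDAC11 after SRF siRNA (0.69, SE 0.12, adjusted p 0.000523) but not detectably with control siRNA (0.05), and the effects differed by 0.65 (SE 0.18, adjusted p 0.0191). SRF siRNA raised it in R1881 (0.49, adjusted p 0.00471). Its second probe set went against this. It was higher with R1881 under control siRNA (0.37, adjusted p 0.0162) and not called after SRF siRNA (0.12), with -0.36 after SRF siRNA in R1881 (lower, adjusted over all passing probe sets) and -0.25 for the difference.

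HDAC8, a class I deacetylase that acts on cohesin, read 7.37, 7.23 and 6.98 with control siRNA and vehicle, 7.27, 6.82 and 7.17 with control siRNA and R1881, 6.65, 6.98 and 7.31 after SRF siRNA with vehicle, and 6.41, 6.74 and 6.32 after SRF siRNA with R1881. The arrays with both treatments were the lowest but overlapped those with SRF siRNA and vehicle. It fell with R1881 after SRF siRNA (-0.49, adjusted p 0.0341, and with the covariate -0.46, adjusted p 0.109). It was also lower after SRF siRNA in R1881 (-0.60, adjusted p 0.0116). Its 2 other probe sets were higher with R1881 under control siRNA (0.80 and 1.23), where the highest-mean one gave -0.11, and lower for the difference (-0.86 and -1.05). They were not called with R1881 after SRF siRNA (-0.06 and 0.18), and were lower after SRF siRNA in R1881 (-0.97 and -0.74). Of the class IIa enzymes HDAC4, HDAC5 and HDAC7, HDAC5 fell with R1881 under control siRNA (-0.41, adjusted p 0.0258) and HDAC4 rose after SRF siRNA in vehicle (0.26, adjusted p 0.0432), both with overlapping arrays. Both calls were lost with the covariate (-0.52, adjusted p 0.173, and 0.28, adjusted p 0.179). HDAC7 was not called in any comparison.

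**Figure D5:**
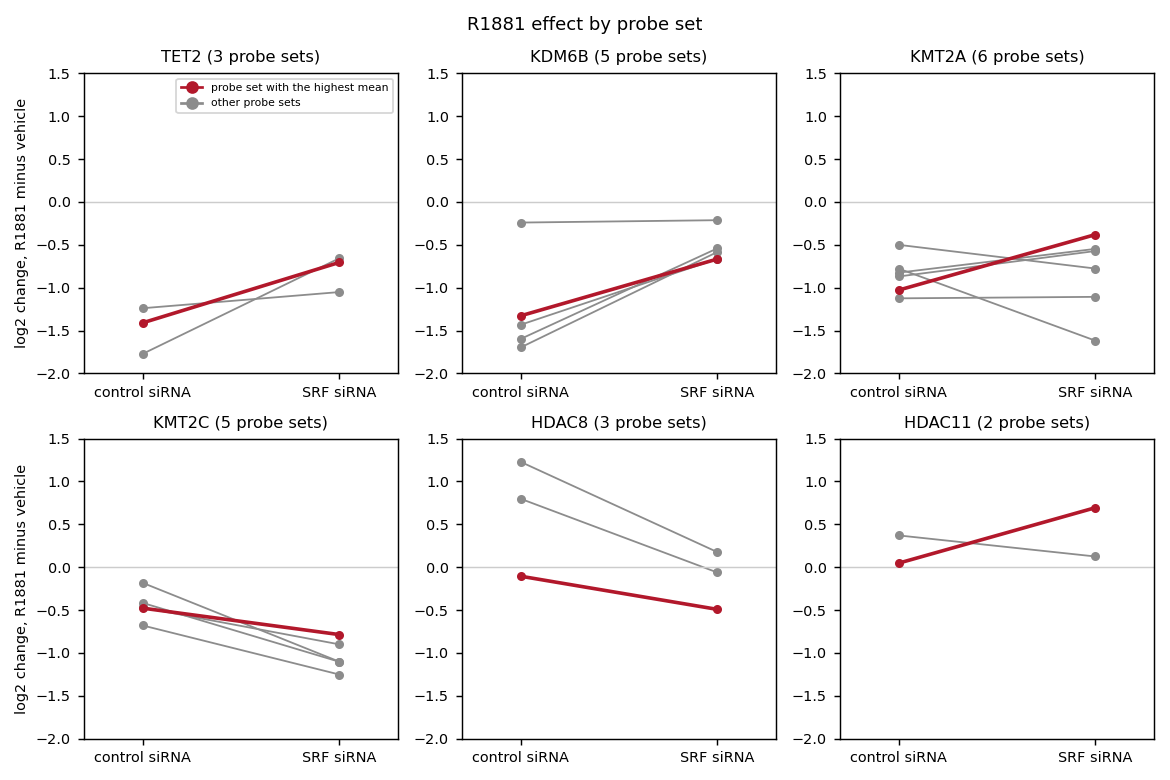
Log2 change with R1881 in the control and SRF siRNA arms for every passing probe set of 6 members, with the highest-mean probe set in red and the others in grey. Probe sets of TET2, KDM6B and KMT2C slope alike in their panels, those of KMT2A and HDAC11 cross, and those of HDAC8 start on opposite sides of 0 under control siRNA.

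Sirtuins are NAD-dependent deacetylases, and they held 2 of the 5 members that rose with R1881. SIRT2, mainly cytoplasmic, read 8.03, 7.52 and 7.72 with control siRNA and vehicle and 8.32, 8.22 and 8.35 with control siRNA and R1881. The SRF siRNA arrays read 6.88, 7.00 and 7.04 in vehicle and 7.40, 7.44 and 7.42 in R1881. All arrays with SRF siRNA lay below all arrays with control siRNA. R1881 raised it by 0.54 with control siRNA (SE 0.11, adjusted p 0.000932) and by 0.45 after SRF siRNA (adjusted p 0.00413), and SRF siRNA lowered it in vehicle (-0.78, adjusted p 6.77e-05) and in R1881 (-0.87, adjusted p 2.23e-05). Its second probe set gave 0.03 with R1881 under control siRNA, was not called there, and was lower after SRF siRNA in both media (-0.32 and -0.40).

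SIRT7, a nucleolar enzyme that deacetylates H3K18, read 7.14, 7.23 and 7.10 with control siRNA and vehicle, 7.45, 7.47 and 7.33 with control siRNA and R1881, 7.42, 7.41 and 7.27 after SRF siRNA with vehicle, and 7.79, 7.88 and 7.91 after SRF siRNA with R1881. Arrays with one treatment overlapped each other, those with none lay lowest and those with both highest. R1881 raised it by 0.26 with control siRNA (adjusted p 0.00847) and by 0.49 after SRF siRNA (adjusted p 0.000122), and SRF siRNA raised it by 0.21 in vehicle (adjusted p 0.0278) and 0.44 in R1881 (adjusted p 0.000219). With the covariate the calls under control siRNA and in vehicle were lost (0.16, adjusted p 0.373, and 0.15, adjusted p 0.312). SIRT1, the nuclear founder of the family, rose after SRF siRNA in both media (0.57, adjusted p 0.000149, and 0.62, adjusted p 5.9e-05) and was not called with R1881. SIRT3, the main mitochondrial deacetylase, fell with R1881 in both arms (-0.80, adjusted p 0.0003, and -0.51, adjusted p 0.00772). With p adjusted over all passing probe sets, 2 of its 3 were lower under control siRNA (-0.80 to 0.07). After SRF siRNA 1 of the 3 was lower with R1881 (-0.51 to 0.12). For the difference 1 was higher (-0.22 to 0.81), and 1 was lower after SRF siRNA in vehicle (-0.60 to 0.02).

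All 3 arginine methyltransferases fell with R1881 under control siRNA, as did 33.8% of all genes tested, and rose after SRF siRNA in R1881, as did 33.6%. PRMT1, the main source of asymmetric dimethylarginine, read 10.49, 10.62 and 10.55 with control siRNA and vehicle and 9.90, 9.72 and 9.69 with control siRNA and R1881. After SRF siRNA it read 11.17, 11.21 and 11.18 in vehicle and 10.64, 10.73 and 10.71 in R1881. The 4 groups were separate. R1881 lowered PRMT1 with control siRNA (-0.78, SE 0.08, adjusted p 1.78e-06) and after SRF siRNA (-0.49, adjusted p 0.000123), and SRF siRNA raised it by 0.64 in vehicle (adjusted p 1.56e-05) and 0.92 in R1881 (adjusted p 5.82e-07). CARM1, a coactivator of steroid receptors, fell with R1881 in both arms (-0.57, adjusted p 0.000529, and -0.40, adjusted p 0.00664) and rose after SRF siRNA in R1881 (0.33, adjusted p 0.0176). PRMT5, which makes symmetric dimethylarginine, fell with R1881 under control siRNA (-0.21, adjusted p 0.0188) and rose after SRF siRNA in R1881 (0.24, adjusted p 0.00932). With the covariate the fall was larger, -0.32 (SE 0.12), and not called (adjusted p 0.0602).

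The choice of 1 probe set per gene could decide single members. Of the 111 member probe sets that passed, 60 further ones belonged to 30 of the genes. With R1881 under control siRNA 33 of these 60 were lower and 4 higher, where 30.2% of all such further probe sets were lower and 22.5% higher. After SRF siRNA 26 were lower and 2 higher with R1881, against 27.1% and 17.9% of all further probe sets. For the difference of the R1881 effects 9 of the 60 were higher and 6 lower, against 7.94% and 8.80%, whereas the chosen probe sets were called higher alone. After SRF siRNA in vehicle 8 of the 60 were higher and 6 lower, against 24.5% and 22.6% of all further probe sets. In R1881 14 were higher and 9 lower, against 26.1% and 25.0%. The further probe sets thus lacked the excess of rises in R1881 of the chosen ones (25 of 51, against 33.6% of all genes tested).

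Proteins that work with these enzymes were measured on the same arrays. The counts of these lists stand beside 33.8% of all genes tested lower and 26.9% higher with R1881 under control siRNA, and 30.7% higher and 25% lower after SRF siRNA in vehicle. Of 18 Polycomb partners tested 11 fell and 2 rose with R1881 under control siRNA, and 9 rose and 3 fell after SRF siRNA in vehicle. CBX2, a reader of trimethylated H3K27, fell with R1881 (-1.93, SE 0.22) and rose after SRF siRNA by 1.89 in vehicle and 2.54 in R1881. PHC1 fell in both R1881 arms (-1.89 and -1.91), and JARID2 rose after SRF siRNA (0.78 and 1.38). Of 11 DNA methylation partners 6 fell and 2 rose with R1881 under control siRNA. UHRF1, which brings the maintenance DNA methyltransferase to replicating DNA, fell with control siRNA (-3.06, SE 0.13, adjusted p 1.86e-09) and after SRF siRNA (-1.59), a difference of 1.47 (SE 0.19, adjusted p 0.000178). MBD2, a reader of methylated DNA, rose by 1.14 with control siRNA.

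Of 19 deacetylase complex subunits 9 fell and 2 rose with R1881 under control siRNA, where 33.8% of all genes tested fell and 26.9% rose. MTA1 of the NuRD complex fell with control siRNA (-1.32) and after SRF siRNA (-0.62), and SAP30 of the SIN3 complex rose by 1.17 with control siRNA. Of 14 histone acetyltransferases, the enzymes that oppose deacetylases, 7 fell and 2 rose. KAT2B, also called PCAF, rose with R1881 in both arms (1.24 and 1.00) and fell after SRF siRNA in vehicle (-2.73, SE 0.15, adjusted p 3.89e-08) and in R1881 (-2.97). Of 10 COMPASS subunits 4 fell, a share close to that of all genes, and none rose with R1881 under control siRNA, WDR5 among the former (-0.83), and WDR82 rose after SRF siRNA (1.18 and 1.54). Of 20 other lysine methyltransferases and demethylases 7 fell and 3 rose, again close to the share of all genes lower, with KDM6A, the paralogue of KDM6B, lower in both arms (-1.08, SE 0.06, adjusted p 2.25e-08, and -1.04). Of 8 other deacetylases and arginine methyltransferases 4 fell and 3 rose, PRMT3 (-1.03) and PRMT2 (0.67) among them.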

How the data were processed

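The deposited values are log2 signals, 1 per probe set and array, made by the authors with GCRMA per the submitters' processing notes; its version was not given in the sources used here. Per the labels' protocols, the labelled cRNA came from 3.5 µg of total RNA. The table held 54675 probe sets: 41091 with 1 symbol in the platform annotation, 1801 with several, 11721 with none and 62 controls. Array medians were 2.97 to 3.06, 37.3% to 38.0% of probe sets exceeded 4, and no further normalization was applied. The number of arrays limits the precision.

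Probe sets above 4 on at least 3 of 12 arrays were kept, the one with the highest mean per gene. The 10265 genes were fitted with 1 mean per group in limma 3.58.1 in R 4.3.3 (lmFit, eBayes), with 5 contrasts and Benjamini-Hochberg adjustment over all genes, called at an adjusted p under 0.05. The fit was tested on simulated data. Changes are on the log2 scale, and values near the background depend on its GCRMA estimate. Per-array values are given for up to 5 called members with the largest change in each direction of each contrast, for HDAC1 in addition, and up to 2 called genes per direction and contrast were taken from each partner list. Members and lists were chosen with earlier results of these data known. Alternatives covered the filter, a floor, the probe set rule, normalization, the variance model, the arrays fitted, the replicate block, a GAPDH covariate, thresholds and leaving out each array. The scanner files were not used here. Figures were drawn with matplotlib 3.10.9.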

Additional observations from a re-analysis of the deposited data

Results flagged for a closer look

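For 9 members the R1881 effect differed between the siRNA arms by the fitted difference itself (SRF siRNA minus control siRNA, log2). TET2 differed by 0.70 (adjusted p 0.00031), KMT2A by 0.65 (adjusted p 0.00825) and KDM3B by 0.40 (adjusted p 0.00905). KDM6B differed by 0.66 (adjusted p 0.0192), HDAC11 by 0.65 (adjusted p 0.0191) and NSD1 by 0.37 (adjusted p 0.0295). HDAC1 differed by 0.30 (adjusted p 0.0347), KDM4C by 0.32 (adjusted p 0.0409) and TET3 by 0.52 (adjusted p 0.0455). These are 9 of the 51 members tested, all higher, where 23.8% of all genes tested differed and 13.2% were higher. With the GAPDH covariate KDM3B (adjusted p 0.0565), HDAC1 (adjusted p 0.0878) and KDM4C (adjusted p 0.115) were lost, and TET3 was lost in 10 of the 12 fits that left out one array. Those fits called 5 to 8 members higher, so calls of members other than TET3 were also lost in some of them. TET2, KDM6B, KMT2A and HDAC11 kept theirs in all 12, and KDM3B, NSD1, HDAC1 and KDM4C were not followed fit by fit. Other probe sets of KMT2A and HDAC11 gave differences below 0. Neither of the 2 TET3 probe sets was called for the difference with p adjusted over all passing probe sets. No cause of the 9 differences was tested.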

How the results depend on the processing

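Among 45 called changes of the 21 members named by the rule, the fits without 1 array kept 525 calls and lost 15, and the other 14 settings kept 579, lost 44 and reversed 2. The reversed ones came with the probe set of largest variance: SETD7 with R1881 after SRF siRNA at -0.14 and the KMT2A difference at -0.84. Without 1 array each, R1881 with control siRNA raised 4 to 5 and lowered 29 to 34 members, and after SRF siRNA raised 5 to 6 and lowered 24 to 28. Of all genes tested 24.6% to 27.1% rose and 31.1% to 34.1% fell with control siRNA. After SRF siRNA 22% to 25.6% rose and 23.7% to 27.7% fell. The difference was higher for 5 to 8 and lower for 0 to 2, against 10.7% to 13.8% and 8.71% to 10.9% of all genes. It was higher for 5 without SRF siRNA vehicle replicate 2 and without SRF siRNA R1881 replicate 3. SRF siRNA raised 13 to 18 and lowered 4 to 6 in vehicle, and raised 21 to 26 and lowered 5 to 6 in R1881. Of all genes 27.6% to 31% rose and 22.2% to 25.4% fell in vehicle. In R1881 29.6% to 34% rose and 22.7% to 25.7% fell.

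With 1.5-fold also required, R1881 raised 0 and lowered 18 with control siRNA, and raised 1 and lowered 12 after SRF siRNA. Of all genes tested 13.9% rose and 17.1% fell with control siRNA, and 11.7% and 12.1% after SRF siRNA. The difference was higher for 4, against 7.32% of all genes. SRF siRNA raised 5 and lowered 2 in vehicle, against 14% and 11.5% of all genes. In R1881 it raised 12 and lowered 3, against 17.1% and 12.2%. At an adjusted p under 0.01 the difference was higher for 3, and 11 rose after SRF siRNA in vehicle. The shares of all genes were 7.21% and 23.1%. The mean over probe sets gave 3 higher with R1881 after SRF siRNA and 4 lower for the difference (HDAC8, KMT2C, NSD2, SETD7). The shares of all genes were 24.9% and 12%. No filter, quantile normalization, a common median, a variance trend and no moderation each gave 1 lower for the difference, KMT2C, and the largest-variance probe set 1, HDAC8. In these settings 5.09% to 11.8% of all genes tested were lower for the difference. The covariate gave 1 higher with R1881 under control siRNA and 7 higher after SRF siRNA in vehicle. Of all genes tested 14.5% and 18.5% were higher. The cause of these shifts was not tested. No called member changed sign under quantile normalization or a common median.

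Replicate numbers did not pair the arrays: deviations of same-numbered arrays correlated at -0.21 to 0.10, and 4 of 12 arrays correlated best with their own number. With the replicate block 5 rose and 33 fell with R1881 under control siRNA, 5 and 24 after SRF siRNA, 6 and 0 for the difference, and 16 and 5, and 25 and 5, after SRF siRNA in vehicle and in R1881. In the same order, the shares of all genes were 26.6% and 33.3%, 24.8% and 27%, and 11.9% and 9.52%. For SRF siRNA they were 30% and 24.5% in vehicle, and 32.8% and 24.8% in R1881.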
